A study of Mus musculus with 15 samples.

Results

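The genes described here are 53 mouse genes of the cell division cycle, 20 that act in DNA replication or at the entry into S phase and 33 that act in mitosis. They were chosen by gene symbol, with their older names, among the probe sets of an oligonucleotide array. A probe set was found for 52 of them, 40 by the symbol or by the aliases Cdc2a and Cdc45l that were given with the list and 12 by another RefSeq synonym, such as Stk6 for Aurka, Np95 for Uhrf1, Lek1 for Cenpf and Plk for Plk1. Together they had 109 of the 45037 probe sets that are not array controls, 42 for the 19 replication genes that were found and 67 for the mitosis genes. Mcm7 had no symbol in the files and is described apart.

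RNA came from B cells of mouse spleen that were sorted for specificity to the hapten NP, a small chemical group used to provoke defined antibody responses. Every donor carried the transgene mVh186.2, which encodes an antibody heavy chain of NP-binding B cells. The first screen, sorted on a FACSVantage, held 4 memory arrays, labelled D to G, and 3 naive arrays, labelled A to C. Its counterpart held 4 memory arrays, labelled EK, FG, HJ and I, made from cells that had formed in AM14/Vk8R transgenic recipients after transfer of mVh186.2 Tg splenocytes. They stood against 4 naive arrays, labelled A to D, of AA4.1-negative cells from mVh186.2 mice that were also Jk KO, and this second screen was sorted on a FACSAria. AA4.1 marks immature B cells, and no such selection is named for the naive cells of the first screen. The sources used here do not give strain, age, immunization scheme or time after immunization. The design text calls the replicates biological, and it is not stated whether the double-letter arrays hold more than 1 mouse each; if arrays share mice, the p-values measure a spread that is partly technical. In sorted bulk samples, fewer cells in cycle and less RNA of a gene per cell cannot be told apart.

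Resting lymphocytes lie outside the division cycle and keep transcripts of most of these genes low. On entry into the cycle, E2F factors released from the Rb family switch on the replication genes, whose products license origins, supply nucleotides and copy the DNA. Later in the cycle, the MYBL2 and FOXM1 complexes switch on the mitosis genes, which build the spindle, condense chromosomes and hold anaphase until all kinetochores are attached. In B cells the fastest division takes place in the germinal center, from which many memory cells arise, and memory and naive cells are both regarded as mostly quiescent.

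The start regions of some of these genes are shown because the replication and the mitosis genes are switched on at different times, through motifs that differ between them. In RefSeq promoter windows on GRCm38.p6, 250 bases before to 50 bases after the start, read on both strands, TTTGAA was found for 19 of 28 mitosis genes (67.9%), 4 of 17 replication genes (23.5%) and 20.2% of 27025 genes. TTTGAA is the cell cycle genes homology region of late cell cycle promoters. CCAAT, the site of NF-Y, was found for 22 of the 28 mitosis genes (78.6%), 12 of the 17 replication genes (70.6%) and 41.1% of all genes. An E2F-type site, searched as TTTGGCGC, as TTTCGCGC, as TTTCCCGC or as TTTGCCGC, was found for 1 mitosis gene (3.57%), 7 replication genes (41.2%) and 2.6% of all genes. These matches describe letters in a window and do not show binding. In the 150 bases before the start that follow, capitals mark these motifs, with TTCAAA for TTTGAA on the other strand, ATTGG for CCAAT on it, and the E2F-type sites reversed likewise. The mitosis genes Cdk1, Top2a and Ube2c carry CCAAT and TTTGAA, the replication genes Mcm5 and Mcm6 carry CCAAT and E2F-type sites, and Nek2 is shown because it moved against the other mitosis genes.
Cdk1 (chr10:69352913-69353062, minus strand): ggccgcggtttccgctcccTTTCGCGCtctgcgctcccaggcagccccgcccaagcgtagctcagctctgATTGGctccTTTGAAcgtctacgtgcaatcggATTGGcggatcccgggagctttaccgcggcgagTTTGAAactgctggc
Top2a (chr11:99024190-99024339, minus strand): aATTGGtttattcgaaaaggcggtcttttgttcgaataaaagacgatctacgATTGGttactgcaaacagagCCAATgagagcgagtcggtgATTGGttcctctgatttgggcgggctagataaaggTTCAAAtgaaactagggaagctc
Ube2c (chr2:164769779-164769928, plus strand): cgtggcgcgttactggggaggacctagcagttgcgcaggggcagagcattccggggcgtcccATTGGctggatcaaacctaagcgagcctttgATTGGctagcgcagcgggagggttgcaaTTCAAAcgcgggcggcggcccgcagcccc
Mcm5 (chr8:75109359-75109508, plus strand): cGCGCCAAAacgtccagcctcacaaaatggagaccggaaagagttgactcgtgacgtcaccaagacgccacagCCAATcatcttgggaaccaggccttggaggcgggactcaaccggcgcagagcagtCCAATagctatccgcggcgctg
Mcm6 (chr1:128359706-128359855, minus strand): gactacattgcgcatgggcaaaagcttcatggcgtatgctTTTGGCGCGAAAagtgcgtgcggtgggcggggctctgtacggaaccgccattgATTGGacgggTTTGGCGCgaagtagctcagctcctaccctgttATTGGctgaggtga
Nek2 (chr1:191821323-191821472, plus strand): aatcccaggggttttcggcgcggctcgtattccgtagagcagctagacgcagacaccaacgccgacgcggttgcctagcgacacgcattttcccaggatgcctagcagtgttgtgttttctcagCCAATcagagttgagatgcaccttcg
The E2F-type site of Cdk1 lies at -131 from the start, its TTTGAA motifs at -71 and -15. Mcm6 has TTTGGCGC at -110 and -47. Nek2 has CCAAT at -26 and no TTTGAA in its window. TTTGAA was also absent from the windows of Bub1, Birc5, Ccnb1, Cenpe, Mad2l1, Nuf2 and Plk4, which fell in the second screen. The window of Mybl2, which was too dim to test in that screen, lacked it too.

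Values below are log2 (intensity + 1), a ± after a change is the standard error of the limma fit, and a ± after a mean is the SD between arrays. A gene was tested where its probe set exceeded the screen's overall median on 3 or more arrays (first screen) or 4 or more (second screen), and called where the Benjamini-Hochberg adjusted p was under 0.05. The 6 B cell markers, among them Cd79a, Cd79b, Ms4a1, Cd22 and Pax5, were tested in both screens, and none of the 6 was called. Their summed intensity was 96436 to 103736 on memory arrays and 95904 to 99217 on naive arrays of the second screen, and 100815 to 134705 on memory arrays and 124503 to 144264 on naive arrays of the first. Of these markers Pax5, a B cell transcription factor, had 5.37, 5.37, 5.19 and 7.81 on memory arrays D to G, against 7.32, 7.50 and 9.28 on naive arrays A to C of the first screen, a change of -2.10 ± 0.75 that was not called (limma, adjusted p = 0.357). Memory G and naive C stood apart in the first screen. Memory G correlated at 0.927 and naive C at 0.915 with the mean of the other arrays of its group, against 0.959 to 0.968 for the other 5 arrays, and their deviations from the group means correlated with each other (r = 0.37 over 15828 genes). All arrays of the second screen correlated at 0.992 or more.

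Memory cells of the second screen had less RNA of most cell cycle genes than naive cells. Of 49 tested genes, 36 fell and 2 rose (limma, adjusted p under 0.05), where 16% of all 14657 genes tested fell, 10.5% rose and 26.6% did either. A change below 0 was seen for 46 of the 49, against 54.7% of all genes, and an unadjusted p under 0.05 for 43, against 38.1%. Among the mitosis genes, 25 of 30 fell, 1 rose, and the median change was -1.41. Among the replication genes, 11 of 19 fell, 1 rose, and the median change was -0.49, beside a median of -0.03 over all genes tested. All 4 memory arrays lay below all 4 naive arrays for 36 of the 49 genes, which held for 17.4% of all genes tested. The filter was passed by 49 of the 52 genes with a probe set: Plk1, Kif4 and Mybl2 were too dim to test, and a dim gene passes such a filter through the group in which it is brighter. For 10 tested genes, 9 of them counted among the 36, fewer than 4 memory arrays lay above the screen's median, so they passed the filter with the help of the naive arrays, in which they were brighter. They are E2f8, Bub1, Bub1b, Ccnb1, Ccnb2, Aurka, Ttk, Kif11, Kif20a and Cenpf. Wherever calls or p-values of these genes are given for this screen, they are descriptions. Among the 39 genes with all 4 memory arrays above the screen's median, 27 fell and 2 rose, 17 of 21 mitosis and 10 of 18 replication genes falling. For these counts no share over all genes that meet the same condition was taken. Ttk and Cenpf had no memory array above the screen's median, and their changes are given below without a test.

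No cell cycle gene was called in the first screen. Of 51 tested genes, 42 had a negative change, as did 47.4% of all 15828 genes tested, and 0 were called lower or higher by limma, where 0.828% of all genes were called, 0.19% lower and 0.638% higher. At an unadjusted p under 0.05 there were 18 of the 51, against 9.93% of all genes. All memory arrays lay below all naive arrays for 13 of the 51, against 4.5% of all genes. Both the 18 and the 13 include E2f8 and Bub1b, which had no memory array above the screen's median. These genes passed the filter through their naive arrays alone, so their part in the counts is a description. Cdc6 and Kif20a, in neither count, passed it with the help of their naive arrays. The median change was -0.34 over 19 replication genes and -0.43 over 32 mitosis genes, beside 0.02 over all genes tested. Calls appeared under 4 other settings. They were Cenpa, E2f8, Mcm5 and Uhrf1 with all 15 arrays in 1 fit, 6 genes with array weights, 5 with memory G and naive C together as a block, and Cenpa, Mcm5, Top2a and Uhrf1 without these 2 arrays. The call of E2f8 is a description too. The calls over all genes moved with the setting as well. They ran from 14 to 473 lower and 51 to 708 higher, beside 30 and 101 in the main fit, leave-one-out fits aside. The median standard error over all genes was 0.26 in this screen and 0.09 in the second. For the tested cell cycle genes it was 0.25 in this screen and 0.27 in the second, and thus not smaller there.

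**Figure D1:**
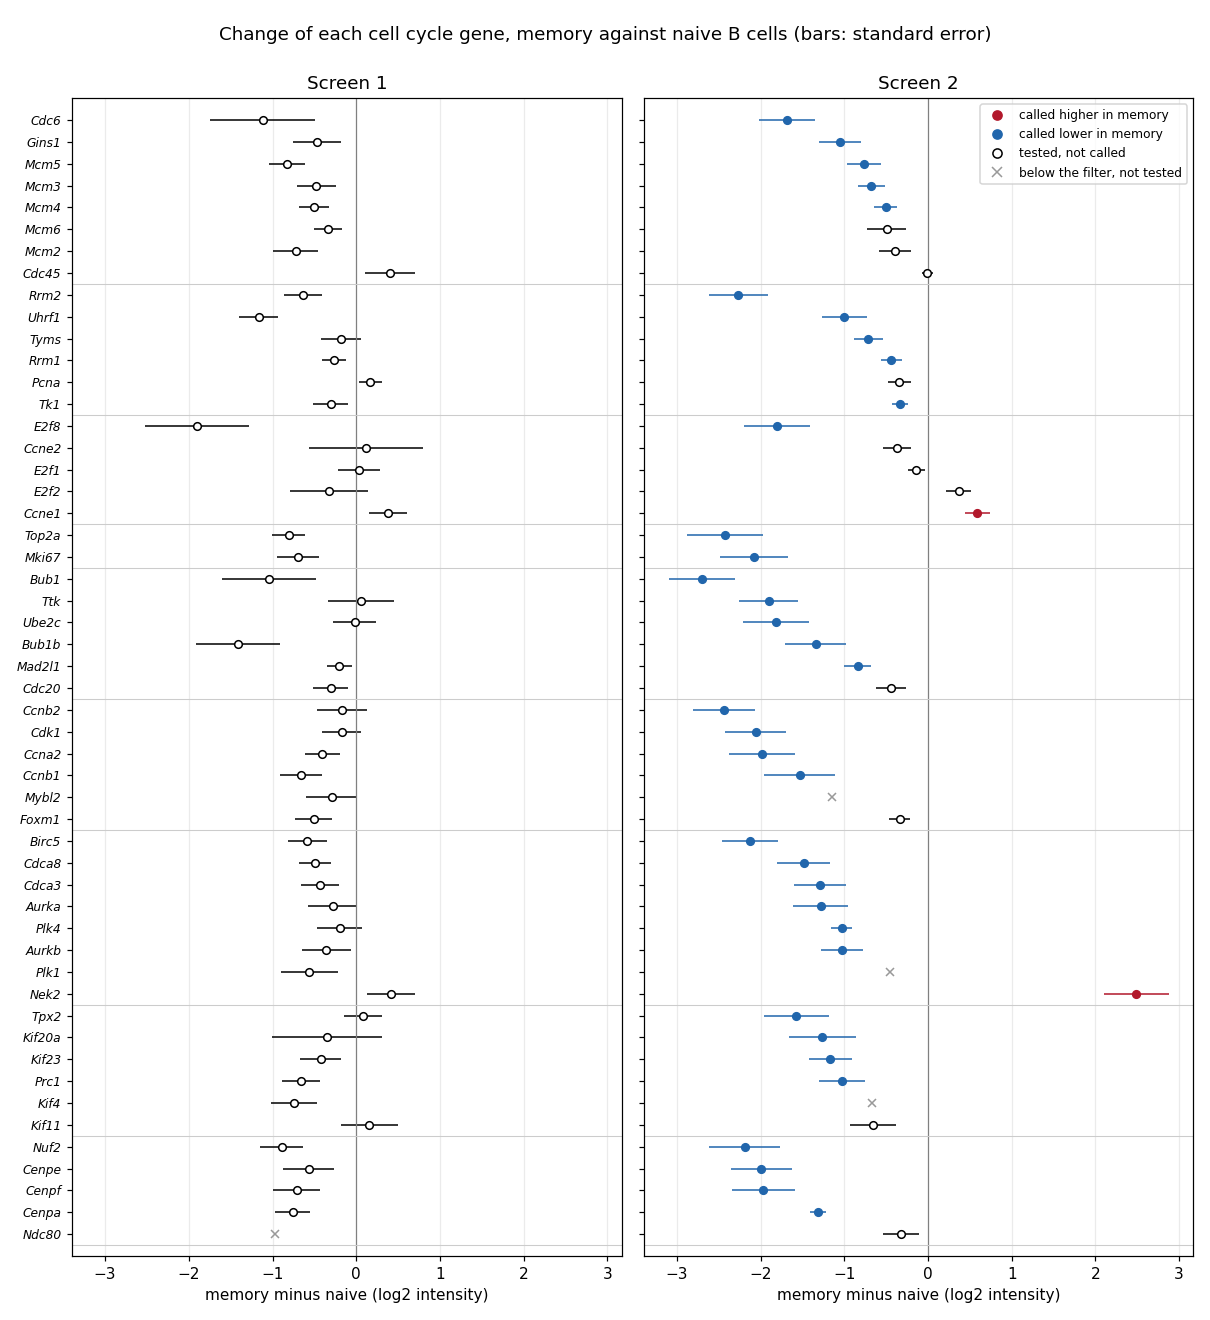
Change of each cell cycle gene, memory minus naive on the log2 scale (x axis), in the first (left) and second (right) screen, with lines between role groups and bars for the standard error of the limma fit. On the right 36 genes are called lower and Nek2 and Ccne1 higher, and on the left the points are mostly left of 0 but none is called.

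Origin licensing and unwinding was the first of the replication groups. In the second screen 5 of 8 tested genes fell, namely Cdc6, Gins1, Mcm3, Mcm4 and Mcm5, and Mcm2, Mcm6 and Cdc45 were not called. Cdc6, which loads the helicase onto origins, stood at 6.64, 6.47, 5.35 and 5.62 on memory arrays EK, FG, HJ and I, against 7.10, 8.33, 7.76 and 7.65 on naive arrays A to D. The groups did not overlap, and Cdc6 fell by 1.69 ± 0.34 (limma, adjusted p = 0.00572). Mcm5, a helicase subunit, had 11.93, 11.50, 11.19 and 11.25 on memory arrays, against 11.95, 12.73, 11.99 and 12.26 on naive arrays. Memory EK and naive A were almost level, and the fall of 0.77 ± 0.20 (limma, adjusted p = 0.0226) was lost without memory HJ or memory I, with array weights and with no filter. Gins1, part of the active helicase, fell by 1.04 ± 0.25, Mcm3 by 0.68 ± 0.16 and Mcm4 by 0.51 ± 0.14. Cdc45, another part of the helicase, was flat at 6.53 ± 0.06 in memory and 6.54 ± 0.01 in naive cells (SD, n = 4 each).

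The largest change of this group in the first screen was that of Cdc6, which stood at 7.07, 7.17, 4.78 and 6.92 on memory arrays D, E, F and G, against 6.97, 7.77 and 8.06 on naive arrays A to C. Its change of -1.12 ± 0.63 rested largely on memory F and was not called (limma, adjusted p = 0.633). Mcm5 had 11.60, 11.58, 11.21 and 10.78 on memory arrays, against 12.04, 12.39 and 11.93 on naive arrays. Here the groups did not overlap, and the change of -0.83 ± 0.22 was close to that of the second screen but was not called (limma, adjusted p = 0.164). The other tested probe sets of Mcm5 did not all move with it, since in the first screen 1459658_at changed by 0.80 and 1415945_at by -0.52, and in the second they changed by 0.05 and -0.98.

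Mcm7, a helicase subunit found by its common name only, had 5 probe sets. Of these, 4 passed the filter, in the second screen, with changes from -0.54 to -0.50, all memory arrays below all naive arrays, and adjusted p from 0.0148 to 0.0266 (limma). The 5 changes of the first screen lay between -0.47 and 0.02 and none was called.

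Fork and nucleotide genes came next, and 5 of 6 tested fell in the second screen, Rrm2, Uhrf1, Tyms, Rrm1 and Tk1. Rrm2, the small subunit of ribonucleotide reductase that is made in S phase, had 8.35, 8.11, 7.56 and 7.51 on memory arrays, against 9.45, 11.18, 9.77 and 10.20 on naive arrays. Every naive array was at least 1 log2 unit above every memory array, and Rrm2 fell by 2.27 ± 0.35 (limma, adjusted p = 0.00157), whereas the large subunit Rrm1 fell by 0.44 ± 0.12. Uhrf1, which guides maintenance DNA methylation to the fork, had 9.19, 8.77, 8.27 and 8.23 on memory arrays, against 9.21, 10.27, 9.49 and 9.49 on naive arrays. It fell by 0.999 ± 0.27 (limma, adjusted p = 0.023), with memory EK next to naive A, and the call was lost without memory HJ or I and with no filter. Tyms, which makes thymidylate, fell by 0.71 ± 0.18, and Tk1, which salvages thymidine, fell by 0.33 ± 0.10 with overlapping groups.

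Pcna, the sliding clamp of the fork, was not called in either screen. It had 12.28, 12.38, 12.15 and 12.27 on memory arrays of the second screen, against 12.40, 13.08, 12.50 and 12.46 on naive arrays, a change of -0.34 ± 0.14 (limma, adjusted p = 0.103). The memory arrays lay below the naive arrays by a small step, and naive B stood alone above the rest. Pcna had 13.26, 13.23, 13.12 and 13.11 on memory arrays of the first screen, against 12.78, 12.996 and 13.27 on naive arrays, which overlap.

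Uhrf1 came nearest to a call of all cell cycle genes in the first screen. Its memory arrays gave 8.82, 9.02, 8.35 and 8.44, against 9.56, 10.23 and 9.68 on naive arrays. The groups were apart, with a change of -1.17 ± 0.24 (limma, adjusted p = 0.0663), beside -0.999 in the second screen. Rrm2 changed by -0.64 ± 0.22 there, with overlapping groups.

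The E-type cyclins and E2F factors, which drive entry into S phase, did not move as 1 group. In the second screen E2f8 fell, Ccne1 rose, and E2f1, E2f2 and Ccne2 were not called. E2f8, a repressor among the E2F factors that acts late in S phase, had 4.83, 4.56, 4.83 and 4.54 on memory arrays, against 5.83, 7.80, 5.80 and 6.56 on naive arrays. It fell by 1.81 ± 0.39 (limma, adjusted p = 0.00908), with no overlap, and memory FG and I lay under the screen's median of 4.73. E2f8 thus passed the filter with the help of its naive arrays, and this p is a description. E2f8 also had the largest change of any cell cycle gene in the first screen, -1.90 ± 0.62, from 6.17, 5.97, 6.96 and 4.37 on memory arrays against 7.48, 7.71 and 8.14 on naive arrays. All memory arrays lay below the median of that screen, 6.98, so E2f8 passed the filter there through its naive arrays alone and the change is a description.

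E2f1, an activator of the replication genes, had 7.50, 7.40, 7.08 and 7.21 on memory arrays of the second screen, against 7.37, 7.50, 7.42 and 7.47 on naive arrays. The groups overlapped, and the change was -0.14 ± 0.10 (limma, adjusted p = 0.358). In the first screen E2f1 had 8.64, 8.68, 8.29 and 8.48 on memory arrays, against 8.53, 8.96 and 7.98 on naive arrays, with the naive arrays on both sides of the memory arrays. E2f2, another activator, had 8.16, 7.55, 7.55 and 7.94 on memory arrays of the second screen, against 7.21, 7.49, 7.50 and 7.53 on naive arrays. All memory arrays were higher, by little, and the change of 0.37 ± 0.15 was not called (limma, adjusted p = 0.104), though it was with array weights. In the first screen E2f2 had 7.24, 7.80, 7.18 and 8.19 on memory arrays, against 7.39, 7.29 and 9.11 on naive arrays, where naive C alone was high.

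Ccne1, which pairs with Cdk2 at the G1/S border, is named here after its values were seen. It had 7.52, 7.34, 7.22 and 7.25 on memory arrays of the second screen, against 6.56, 7.16, 6.47 and 6.79 on naive arrays. It rose by 0.59 ± 0.15 (limma, adjusted p = 0.0198), with naive B close under the memory arrays. The call was lost without memory EK, without naive A, without naive C and in the fit of all 15 arrays. Its first-screen change was 0.38 ± 0.23 and was not called. The related Ccne2 had 3 tested probe sets in the second screen that disagreed in sign, with changes of -1.60, -0.37 and 0.29.

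Chromosome genes opened the mitosis group. Mki67 coats mitotic chromosomes and is the usual marker of cycling cells, and Top2a untangles sister DNA. Mki67 had 8.78, 8.37, 8.12 and 7.91 on memory arrays of the second screen, against 9.58, 11.63, 9.84 and 10.43 on naive arrays. The groups did not overlap, and Mki67 fell by 2.08 ± 0.41, or 4.22-fold (limma, adjusted p = 0.00528). Top2a had 7.40, 7.02, 6.71 and 5.58 on memory arrays, against 8.41, 10.14, 8.63 and 9.25 on naive arrays, and fell by 2.43 ± 0.45, or 5.38-fold (limma, adjusted p = 0.00422). Memory I was the lowest and naive B the highest array for both genes.

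Neither gene was called in the first screen. Mki67 had 10.32, 10.04, 10.28 and 9.56 on memory arrays, against 10.26, 11.13 and 10.85 on naive arrays. Naive A lay among the memory arrays, and the change was -0.70 ± 0.25 (limma, adjusted p = 0.357). Top2a had 9.92, 9.91, 9.83 and 9.34 on memory arrays, against 10.29, 10.74 and 10.64 on naive arrays. Those groups did not overlap, and the change of -0.81 ± 0.19 was not called (limma, adjusted p = 0.126). Its second kept probe set there, 1442454_at, changed by 0.35 with a wide spread among the naive arrays.

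Spindle checkpoint genes and their target, the anaphase-promoting complex, came next. In the second screen 5 of 6 were called lower, Bub1, Ube2c, Bub1b, Mad2l1 and Ttk. Bub1 and Bub1b passed the filter with the help of their naive arrays, and Ttk only through its naive arrays. Bub1, a checkpoint kinase at the kinetochore, had 5.40, 4.66, 4.91 and 3.94 on memory arrays, against 6.69, 8.42, 7.08 and 7.51 on naive arrays. It had the largest fall of all cell cycle genes, 2.70 ± 0.40 or 6.50-fold (limma, adjusted p = 0.00109), without overlap, and memory FG and I lay under the screen's median. The p of Bub1 is therefore a description. Ttk, the kinase at the top of the checkpoint, had 4.62, 4.71, 4.26 and 4.27 on memory arrays, against 5.96, 7.57, 5.76 and 6.17 on naive arrays. Since every memory array of Ttk lay under the screen's median, it was tested only because its naive arrays were brighter, and its change of -1.90 is a description.

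Bub1b, which holds back the anaphase-promoting complex, had 4.94, 5.15, 5.15 and 4.70 on memory arrays of the second screen, against 5.31, 7.36, 6.17 and 6.47 on naive arrays. Naive A was close above the memory arrays, and the fall of 1.34 ± 0.36 (limma, adjusted p = 0.0238) was lost without memory EK or I, with no filter and with array weights. The p of Bub1b is a description as well. Mad2l1, the partner of Bub1b in the checkpoint complex, had 8.66, 8.67, 8.54 and 8.34 on memory arrays, against 9.13, 9.86, 9.14 and 9.44 on naive arrays. It fell by 0.84 ± 0.16 (limma, adjusted p = 0.00477), a smaller but even step with no overlap. Ube2c, the ubiquitin carrier of the complex, fell by 1.81 ± 0.39, and Cdc20, its activator, changed by -0.44 ± 0.18 and was not called (limma, adjusted p = 0.0989).

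Bub1b and Bub1 had the largest changes among mitosis genes in the first screen. Bub1b had 6.32, 5.50, 5.87 and 6.45 on memory arrays, against 7.02, 7.13 and 8.18 on naive arrays, which did not overlap. All its memory arrays lay under the screen's median, and its change of -1.41 is a description for the same reason as that of E2f8. Bub1 had 7.41, 7.56, 7.05 and 5.26 on memory arrays, against 7.35, 8.24 and 8.01 on naive arrays. Memory G alone was far down, and the change of -1.05 ± 0.56 was not called (limma, adjusted p = 0.599). Ube2c and Ttk changed by -0.02 and 0.06 there, beside -1.81 and -1.90 in the second screen.

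**Figure D2:**
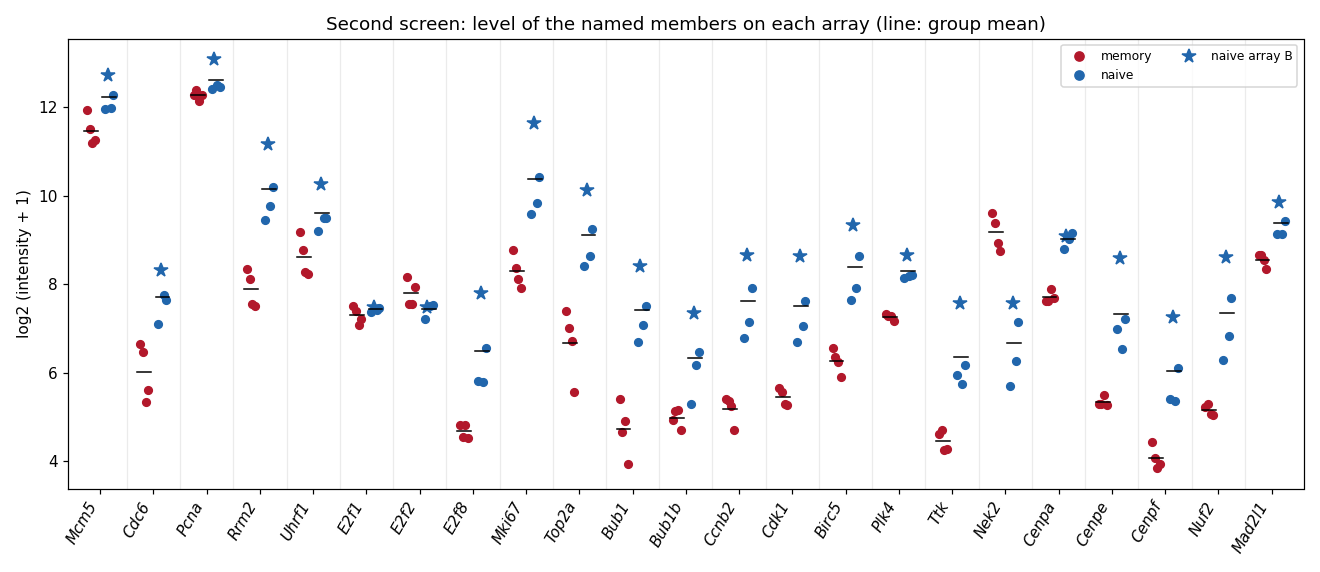
Level of each named cell cycle gene (log2 intensity + 1, y axis) on each array of the second screen, memory left of naive for each gene, with lines for the group means and a star for naive array B. Memory arrays lie below naive arrays for most genes and above them for Nek2 and E2f2, and naive B is often the highest array.

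Mitotic cyclins, their kinase and their transcription factors gave 5 tested genes in the second screen, of which 4 fell. Ccnb2, a B-type cyclin, had 5.42, 5.37, 5.25 and 4.72 on memory arrays, against 6.78, 8.67, 7.15 and 7.91 on naive arrays. Each naive array lay above each memory array, and Ccnb2 fell by 2.44 ± 0.37 or 5.42-fold (limma, adjusted p = 0.00135). Ccnb2 passed the filter with the help of its naive arrays, so this p is a description. Cdk1, the kinase these cyclins switch on, had 5.66, 5.56, 5.30 and 5.28 on memory arrays, against 6.71, 8.65, 7.06 and 7.63 on naive arrays. It fell by 2.06 ± 0.36 (limma, adjusted p = 0.00294). Ccna2, the cyclin of S phase and early mitosis, fell by 1.98 ± 0.40, and Ccnb1 by 1.53 ± 0.42. Foxm1, a transcription factor of the mitosis genes, changed by -0.34 ± 0.13 and was not called (limma, adjusted p = 0.0804). Mybl2, its partner factor, was too dim to test, at 3.86 ± 0.15 in memory and 4.998 ± 0.77 in naive cells (SD, n = 4 each), with memory below naive on all arrays. Ccnb2 and Cdk1 changed in the first screen by -0.17 ± 0.30 and -0.18 ± 0.24, Ccnb1 by -0.66 ± 0.25 and Foxm1 by -0.51 ± 0.22, none of them called.

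Mitotic kinases and the chromosomal passenger complex, which corrects wrong attachments, gave 7 tested genes in the second screen, of which 6 fell and Nek2 rose. Birc5, also called survivin, a subunit of the passenger complex, had 6.56, 6.36, 6.23 and 5.90 on memory arrays, against 7.65, 9.34, 7.92 and 8.63 on naive arrays. The groups were a full log2 unit apart, and Birc5 fell by 2.12 ± 0.33 (limma, adjusted p = 0.00168). Plk4, the kinase that starts centriole duplication, had 7.33, 7.28, 7.29 and 7.17 on memory arrays, against 8.14, 8.67, 8.19 and 8.20 on naive arrays. Its fall of 1.03 ± 0.12 had little spread in either group (limma, adjusted p = 0.000279). Cdca8, another passenger subunit, fell by 1.49 ± 0.32, Aurkb, the kinase of that complex, by 1.03 ± 0.25, and Aurka, the kinase of spindle poles, by 1.28 ± 0.33. Cdca3, which helps to trigger entry into mitosis, fell by 1.29 ± 0.31. Plk1, the main polo-like kinase, was too dim to test in that screen, with 4.12, 4.18, 4.16 and 4.13 on memory arrays and 4.13, 5.44, 4.22 and 4.62 on naive arrays, where naive B and D alone were raised.

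Nek2, a kinase that parts the centrosomes before mitosis, went the other way. Its brightest probe set, 1437580_s_at, had 9.62, 9.38, 8.93 and 8.75 on memory arrays of the second screen, against 5.71, 7.59, 6.27 and 7.16 on naive arrays. Every memory array was above every naive array, and Nek2 rose by 2.49 ± 0.39 or 5.60-fold (limma, adjusted p = 0.00154), a call kept under all 18 other settings run. A second probe set, 1417299_at, had 7.50, 7.69, 7.08 and 7.01 on memory arrays, against 5.78, 6.52, 5.42 and 5.81 on naive arrays. It too was higher on every memory array, by 1.44 ± 0.24 (limma over every probe set, adjusted p = 0.00248). The 2 remaining probe sets, 1437579_at and 1443999_at, were dim in both groups of that screen and were not kept. Within the naive group, B and D were again the highest for 1437580_s_at. For the first screen, the change was 0.41 ± 0.28 for 1437580_s_at, and 1417299_at changed by 0.56 ± 0.27 and 1437579_at by -0.60 ± 0.85, and none was called. A probe set ending in _s_at can match more than 1 transcript, and those ending in _x_at, which were read for Mcm5 and Rrm2 in both screens, Mcm6 and Foxm1 in the second and Aurkb in the first, may cross-hybridize.

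**Figure D3:**
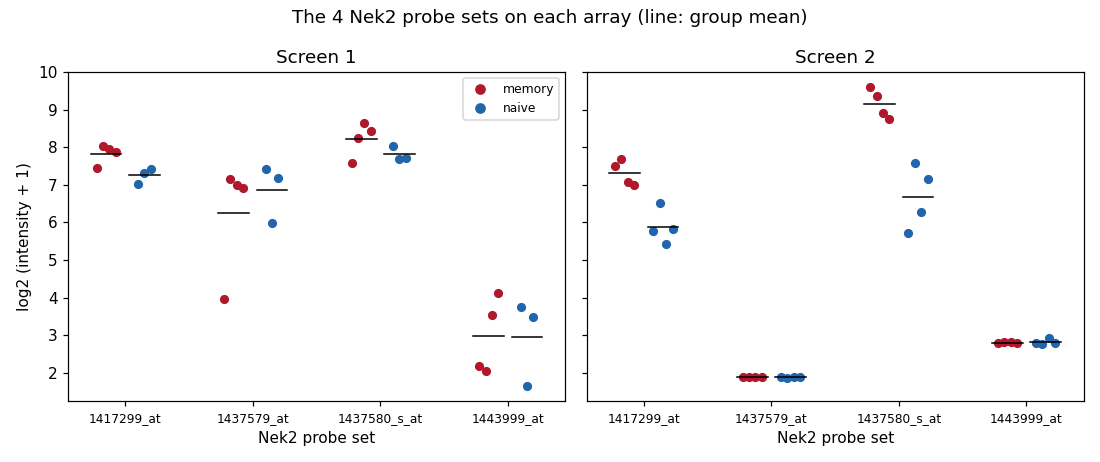
Level of the 4 Nek2 probe sets (log2 intensity + 1, y axis) on each array of both screens, memory left of naive, with lines for the group means. In the second screen 1437580_s_at and 1417299_at are higher on all memory arrays and the other probe sets lie low in both groups.

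Spindle motors and microtubule binders gave 5 tested genes in the second screen, of which 4 fell. Tpx2, which activates Aurka on the spindle, fell by 1.57 ± 0.38, and Kif23, a motor of the spindle midzone, fell by 1.17 ± 0.25. Prc1, which bundles midzone microtubules, fell by 1.03 ± 0.27. Kif20a, a motor of cytokinesis, fell by 1.26 ± 0.40 with overlapping groups (limma, adjusted p = 0.0459), a call lost in most leave-one-out fits. Kif11, which separates the spindle poles, changed by -0.66 ± 0.27 and was not called (limma, adjusted p = 0.108). Kif20a and Kif11 passed the filter with the help of their naive arrays, so both p-values are descriptions. Kif4, a chromosome motor, was too dim to test, with naive B at 6.45 and naive D at 5.38 and all other arrays between 4.55 and 4.59. Kif4 and Prc1 had all memory arrays below all naive arrays in the first screen, with changes of -0.75 ± 0.28 and -0.66 ± 0.23, while Tpx2 changed by 0.08 ± 0.23.

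Centromere and kinetochore genes closed the mitosis group, with 4 of 5 called lower in the second screen, Cenpf only through its naive arrays. Cenpa, the histone variant that marks centromeres, had 7.62, 7.62, 7.89 and 7.69 on memory arrays, against 8.81, 9.09, 9.02 and 9.16 on naive arrays. Of all cell cycle genes it had the smallest adjusted p (1.95e-05, limma), with a fall of 1.32 ± 0.10, and here naive B did not stand out. Cenpe, a kinetochore motor, had 5.31, 5.29, 5.51 and 5.28 on memory arrays, against 6.99, 8.58, 6.54 and 7.22 on naive arrays. The memory arrays were tightly grouped, and Cenpe fell by 1.99 ± 0.37 (limma, adjusted p = 0.00385). Cenpf, a large protein of the outer kinetochore, had 4.43, 4.07, 3.85 and 3.94 on memory arrays, against 5.42, 7.26, 5.37 and 6.11 on naive arrays. All its memory arrays lay under the screen's median, so that its change of -1.97 is a description too.

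Nuf2 and Ndc80 are partners in the complex that grips microtubules. Nuf2 had 5.23, 5.31, 5.08 and 5.04 on memory arrays of the second screen, against 6.28, 8.62, 6.82 and 7.70 on naive arrays. It fell by 2.19 ± 0.43 (limma, adjusted p = 0.0051), whereas Ndc80 changed by -0.33 ± 0.22 (limma, adjusted p = 0.306) and only its naive B array, at 6.96, was raised. In the first screen Nuf2 had 7.39, 7.53, 7.75 and 7.82 on memory arrays, against 8.17, 8.40 and 8.97 on naive arrays. Those groups did not overlap, and neither did those of Cenpa, which had 9.69, 9.67, 9.62 and 8.95 on memory arrays, against 10.11, 10.32 and 10.31 on naive arrays. The changes, -0.89 ± 0.26 for Nuf2 and -0.76 ± 0.21 for Cenpa, were not called (limma, adjusted p = 0.222 and 0.177).

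**Figure D4:**
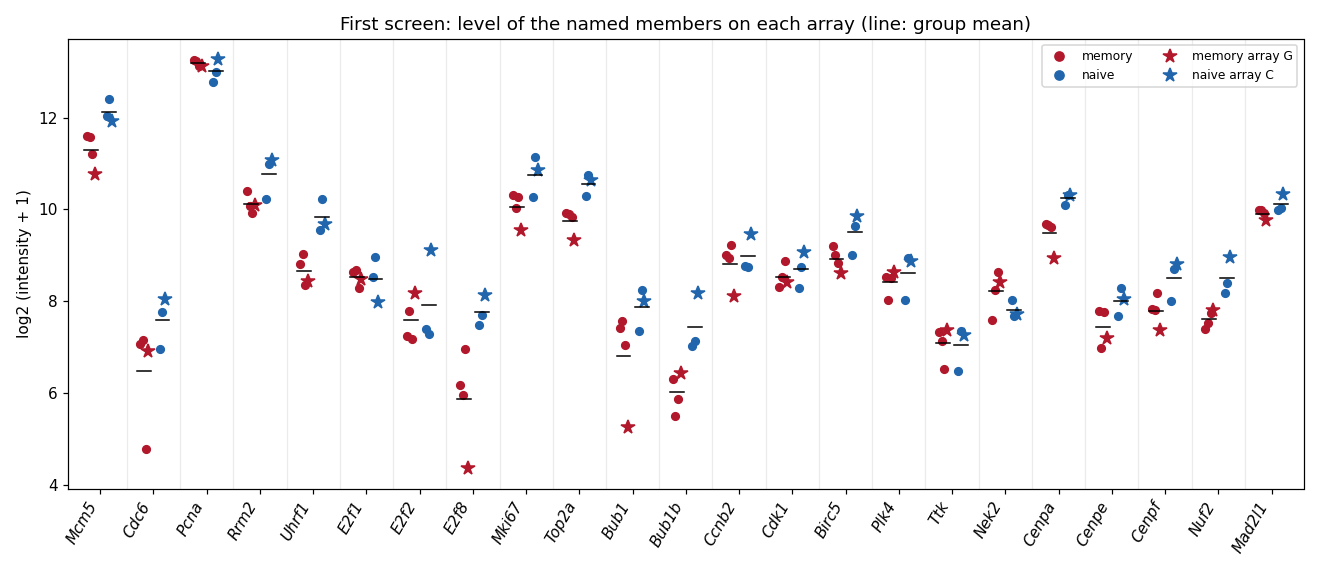
Level of each named cell cycle gene (log2 intensity + 1, y axis) on each array of the first screen, memory left of naive for each gene, with lines for the group means and stars for memory array G and naive array C. For Uhrf1, Top2a, Mcm5, E2f8, Bub1b, Cenpa and Nuf2 all memory arrays lie below all naive arrays.

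The naive arrays of the second screen differed widely among themselves. Naive B was the highest naive array for 43 of the 49 tested cell cycle genes, 28 of 30 mitosis and 15 of 19 replication genes, against 22.4% of all genes tested. Naive A was the lowest for 33, against 15.8% of all genes. The summed intensity of the 33 mitosis genes was 3868, 3401, 3176 and 2744 on memory arrays, against 5236, 15061, 5874 and 8437 on naive arrays. Naive B was far above the other naive arrays, and even naive A, the lowest of them, exceeded every memory array. For the 19 replication genes the sums were 19038, 16315, 14127 and 14189 on memory arrays, against 19528, 32278, 20613 and 22925 on naive arrays, with naive A just above memory EK. Among the memory arrays I was the lowest for 28 of the 49 genes and EK the highest for 29.

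Genes of germinal center B cells were high on naive B as well. S1pr2, which keeps B cells in the germinal center, had 6.19, 6.05, 6.28 and 5.84 on memory arrays, against 6.01, 9.49, 6.07 and 6.93 on naive arrays. A single naive array was thus far above the rest, and Gcsam and Mybl1, which were too dim to test, were also highest on naive B, at 6.55 and 5.67. Of the 6 tested germinal center markers, 3 fell in memory cells: Bcl6 by 1.73 ± 0.18, Rgs13 by 1.21 ± 0.12 and Mef2b by 0.23 ± 0.07. Their summed intensity over 8 genes was 7424 to 10640 on memory arrays and 18695 to 23855 on naive arrays, and 9295 to 13074 and 14994 to 16635 in the first screen. Without naive B, 34 of the 49 cell cycle genes fell and 2 rose, 24 mitosis and 10 replication genes fell, and the median changes were -1.15 and -0.36. Of all 14657 genes tested, 1964 fell and 1268 rose without naive B, beside 2351 and 1541 with it. Without it Mki67 fell by 1.66, Top2a fell by 2.08, Bub1 fell by 2.37, Cdk1 fell by 1.68, Nek2 rose by 2.79, and the calls lost were those of Kif20a and Tk1.

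Markers of other cells were also measured. T cell genes summed to 317 to 431 on memory arrays and 731 to 1137 on naive arrays of the second screen, with Lck, Cd3g, Cd3d and Cd28 lower in memory among 6 tested. Erythroid genes summed to 3229 to 6397 on memory arrays and 4131 to 7396 on naive arrays, with Car2 lower, and myeloid genes to 3952 to 8122 and 1479 to 8535, with Cd68 higher. Antibody-secreting cell genes summed to 14735 to 16640 on memory arrays and 5243 to 7811 on naive arrays, with Jchain higher by 3.36 ± 0.42. B cell precursor genes were near the floor, at 72.3 to 79.8 on memory arrays and 70.5 to 71.7 on naive arrays.

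These markers moved in the first screen as well. Myeloid genes summed to 3942 to 10308 on its memory arrays and 1785 to 3069 on its naive arrays, with 0 of 7 tested called and 5 at an unadjusted p under 0.05 (limma). Antibody-secreting cell genes summed to 22817 to 27453 on memory arrays and 11794 to 13783 on naive arrays, with Jchain alone of 4 tested called, higher by 3.46 ± 0.32. Both sums were higher on every memory array than on any naive array. Erythroid genes summed to 10833 to 33469 on memory arrays, memory D being far above the rest, and 6884 to 10605 on naive arrays. This sum, too, was higher on every memory array than on any naive array. Of 7 tested erythroid genes Car2 alone was called, and it was lower. Only 2 of the 7 changes were negative, the median change was 0.55 and the highest 3.60. For 2 of the 7, all naive arrays lay under the screen's median. T cell genes summed to 1092 to 1160 on memory arrays and 1163 to 1735 on naive arrays, with Lck lower among 3 tested, and B cell precursor genes to 243 to 599 and 234 to 382. The part of these cells, and of germinal center cells, in the changes of the cell cycle genes was not tested beyond the values without naive B.

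**Figure D5:**
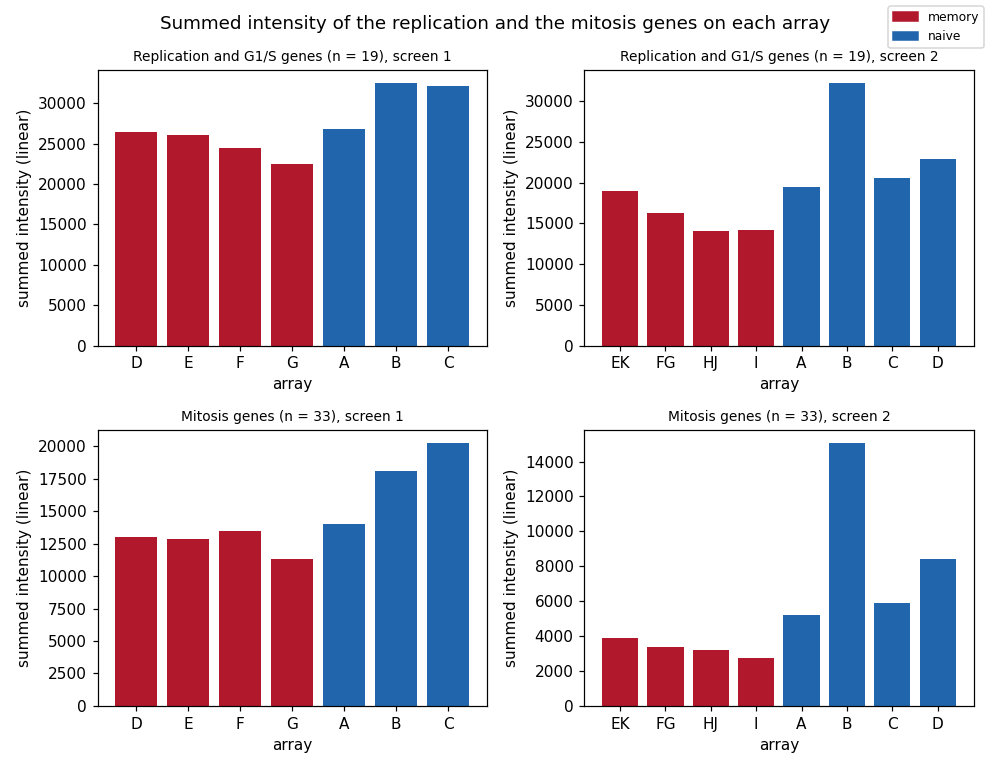
Summed linear intensity (y axis) of the 19 replication and the 33 mitosis genes on each array (x axis), memory left of naive, in the first and second screen. In every panel each naive array is higher than each memory array, and naive B of the second screen has the highest bar of its panels.

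The sums of the first screen were closer together. Mitosis genes summed to 12999.5, 12847, 13454 and 11293 on memory arrays D, E, F and G, against 14057, 18127 and 20265 on naive arrays A to C. The replication genes summed to 26464, 26089, 24488 and 22532 on memory arrays, against 26848, 32524 and 32137 on naive arrays. Naive A was in both cases only a little above the highest memory array, and it was the lowest naive array for 37 of the 51 tested genes. Naive C was the highest for 30 of them.

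The difference between the screens was tested for 44 cell cycle genes whose same probe set passed in both. The change was lower in the second screen than in the first for 36 of the 44, a count for which no share over all genes was taken. Among these, Pcna, Cdc45, Ttk, Tpx2, Kif11, E2f1 and Ccne2 had a change above 0 in the first screen. At an unadjusted p under 0.05 there were 20 of the 44, against 12.6% of all 11958 genes. After adjustment 1 was called lower and 0 higher, where 0.786% of all genes were lower, 0.569% higher and 1.35% either. It was Ccnb2, whose change was -2.27 ± 0.53 further down in the second screen (limma contrast, adjusted p = 0.0499). Ccnb2, and Bub1, Ttk and Cenpf among the 20, had passed the second screen's filter with the help of the naive arrays, in which they were brighter. Their part in these counts is therefore a description. Nek2, with 2.07 ± 0.51 (adjusted p = 0.0647), and Cdk1, with -1.88 ± 0.47 (adjusted p = 0.0692), came next in the same limma contrast. For several replication genes the changes lay side by side, second screen first. They were -0.77 and -0.83 for Mcm5, -0.999 and -1.17 for Uhrf1, -1.81 and -1.90 for E2f8 and -0.51 and -0.51 for Mcm4. Other replication genes lay apart, with -2.27 and -0.64 for Rrm2, -1.04 and -0.47 for Gins1 and -0.34 and 0.17 for Pcna. Among the mitosis genes, Bub1b had -1.34 and -1.41. The first-screen changes of E2f8 and Bub1b are descriptions, as stated above. The call of Ccnb2 was lost under most leave-one-out fits, and 11 genes were called without the first screen's memory G and naive C. The 1.35% above is not the background of those 11. Calls over all genes ran from 17 to 659 lower and 46 to 488 higher across 5 settings, this 1 included, beside 94 and 68 in the main fit. The screens differ in sorter, labelling kit, summarization and the source of both cell types, which cannot be told apart.

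Genes of the same pathways outside the list also fell in the second screen. Among 42 other replication genes, 39 were tested in each screen, and 30 fell and 0 rose in the second, with a median change of -0.62. These counts, too, stand beside the 16% of all genes tested that fell and the 10.5% that rose. Rpa2, of the single-strand binding complex, fell by 0.67 ± 0.08, and Brca1, a DNA repair protein, fell by 1.21 ± 0.17. Among 60 other mitosis genes, 34 of 49 tested fell and 0 rose, with a median of -1.19. Zwilch, of the kinetochore complex that recruits dynein, fell by 1.64 ± 0.13, Ska1, a microtubule binder, by 1.86 ± 0.23, Pttg1, or securin, by 1.40 ± 0.18 and Depdc1a by 1.86 ± 0.21. Of 12 tested genes of the Rb family and the DREAM complex, which hold cell cycle genes silent in resting cells, 5 fell and the median was -0.13. Tfdp2, the partner of E2F factors, fell by 0.71 ± 0.10, Rbl1, or p107, by 0.48 ± 0.08, the activator E2f3 by 0.34 ± 0.07 and Rbbp4, a histone-binding subunit, by 0.33 ± 0.05.

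None of these 3 lists had a called gene in the first screen by limma, and at an unadjusted p under 0.05 there were 8 of 39, 14 of 50 and 0 of 13. Of the 50 mitosis genes, 1 had every memory array under the screen's median and passed the filter through its naive arrays alone. The largest changes were those of Timeless (-1.12 ± 0.26) and Gins2 (-1.01 ± 0.41) among replication genes, Sgo1 (-2.24 ± 0.63) and Kif22 (-1.22 ± 0.28) among mitosis genes, and E2f7 (-0.63 ± 0.52) and E2f5 (-0.47 ± 0.27) among the third list.

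Read over every kept probe set rather than 1 per gene, 51 of 81 cell cycle probe sets fell and 3 rose in the second screen, where 14.4% of all 22638 kept probe sets fell and 9.61% rose. In the first, 0 of 80 were called by limma, where 0.491% of 23813 were. Probe sets of 1 gene disagreed in sign for Ccne2 and Mcm5 among 25 genes with several in the second screen. They did so for 10 of 21 such genes in the first: Aurkb, Cdc45, Cdca8, Foxm1, Kif11, Mcm3, Mcm5, Nek2, Rrm1 and Top2a.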

How the data were processed

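RNA of sorted mouse splenic B cells was hybridized to oligonucleotide arrays, 7 for the first screen and 8 for the second. The authors deposited 1 intensity per probe set and array on a linear scale. The second screen was summarized with GCRMA, per the submitters' processing notes; its version and the software of the first screen are not given in the sources used here. GCRMA pulls dim probes together, which narrows the spread between arrays at low signal. The arrays' median intensities ranged from 103.4 to 153.7 (first screen) and from 25.0 to 26.0 (second screen), and precision is limited by how many arrays there are.

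From these values log2(intensity + 1) was taken, and the 64 control probe sets of 45101 were left out. Probe sets above the screen's median (6.98 and 4.73 on the log2 scale) on at least 3 or 4 arrays were kept, 23813 and 22638 in number, and the probe set with the highest mean stood for its gene. Symbols were updated through RefSeq synonyms. Memory was compared with naive cells within each screen in R 4.3.3 by limma 3.58.1 (lmFit, then eBayes with its trend option), and p-values were adjusted by Benjamini-Hochberg over 15828 and 14657 genes and probe sets. The difference between the screens was a contrast in 1 fit of 15 arrays. Samples were grouped by their labels. The fit was tested on simulated data. Python 3.11.15, NumPy 2.4.6, pandas 2.3.3 and Matplotlib 3.10.9 were used besides.

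The genes and lists were chosen with earlier results of these data known. Values per array are given for called cell cycle genes, up to the 15 with the smallest adjusted p per screen, the 3 with the largest change per screen and gene group, and Mki67, Top2a, Mcm5, Pcna, E2f1 and E2f2. Of other lists up to 4 called or 2 uncalled genes are named, and some list members are not reported here. Alternatives were the filter, centring, quantile normalization, a pseudocount of 16, other ways to treat a gene's probe sets, no trend, array weights, a fit of all arrays, memory G and naive C of screen 1 left out or as a block, and each array left out in turn. The authors' deposited ratios and p-values were not used.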

Additional observations from a re-analysis of the deposited data

Results flagged for a closer look

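Among 69 sets of 4 arrays examined for the named genes, 7 held an array whose gap to its nearest neighbour took up most of the set's range (Dixon's test), and chance flags about 1 in 20 such sets. On the first screen these were memory F for Cdc6, at 4.78, and memory G for Top2a, at 9.34, and for Cenpa, at 8.95. On the second screen they were memory HJ for Cenpe, at 5.51, naive B for Pcna, at 13.08, and for Plk4, at 8.67, and naive A for E2f2, at 7.21. The change of Ccnb2 differed between the screens by -2.27 on the log2 scale (second minus first, limma contrast, adjusted p = 0.0499). Ccnb2 had passed the second screen's filter with the help of its naive arrays. All memory arrays of Ccnb2 lay below all naive arrays in the second screen, and the groups overlapped in the first.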

How the results depend on the processing

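For the first screen, 0 cell cycle genes were called lower. With all 15 arrays in 1 fit 4 were (3 replication and 1 mitosis), with array weights 6 (3 and 3), with memory G and naive C as a block 5 (3 and 2), and without both arrays 4 (2 and 2). The 4 of the fit of all 15 arrays include E2f8, whose call is a description. Leaving out 1 array gave 0 to 0. For the second screen, 36 were called lower (11 and 25) and 2 higher. The 75th percentile filter left 13 lower (7 and 6) and 1 higher, since it tested fewer of them, no filter left 27 lower (6 replication), and the fit of all arrays left 1 higher. Leaving out 1 array gave 27 to 37 lower, 6 to 12 of them replication genes and 21 to 26 mitosis genes, and 1 to 2 higher. The replication count fell to 6 without memory HJ or I. Of the difference between screens, 1 gene was called lower and 0 higher: 0 were lower with median centring, quantile normalization, a pseudocount of 16 or no trend, 10 lower and 1 higher without naive C and memory G, and 0 to 3 lower and 0 to 1 higher without 1 array.

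Some uncalled changes of the first screen turned sign. E2f1 was -0.15 with array weights, -0.16 with median centring, -0.0163 with quantile normalization, -0.21 without naive C and memory G and -0.22 to 0.27 without 1 array. Ttk was -0.14 with centring, -0.13 with quantile normalization and -0.22 to 0.24 without 1 array. Ccnb2 was 0.16 with weights, 0.30 without both arrays and -0.31 to 0.0654 without 1. E2f2 was 0.11 with weights, 0.0686 without both and -0.65 to 0.26 without 1. Cdk1 was 0.05 without both and -0.38 to 0.0105 without 1, and Pcna -0.0239 with centring. The cause was not tested. Over all genes, calls in the first screen ran from 14 to 473 lower and 51 to 708 higher, in the second from 1046 to 3269 and 768 to 2175, and for the difference from 17 to 659 and 46 to 488; without 1 array they were 6 to 44 and 53 to 113, 1750 to 2683 and 1202 to 1507, and 38 to 294 and 35 to 214. Median changes of both gene groups kept their sign under every setting run, from -0.62 to -0.25 for mitosis and -0.53 to -0.28 for replication genes in the first screen and from -1.69 to -1.15 and -0.56 to -0.36 in the second. No paired analysis was possible because no label ties a memory array to a naive array, and their letters differ. Signals near the floor, as for Ttk and Cenpf in memory cells, have sizes that depend on the summarization.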
